A study of Mus musculus with 4 samples.

Results

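The regions described here are the sites of C-to-U editing that stand alone in their gene. In a list of 28412 edited positions of the mouse cortex, filed under 4206 gene symbols, 1551 symbols occurred exactly once, and their 1551 sites were kept. These genes made up 36.9% of the listed genes and 5.46% of the sites. They were set beside the 709 genes with 10 or more sites, which held 19054 sites or 67.1% of the list. Both sets were chosen by the number of sites that the list files under a symbol, so that number is a description and was not tested.

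RNA came from papain-dissociated cortex of mice carrying APOBEC1-YTH or APOBEC1-YTHmut, which were 6 to 8 weeks old when tamoxifen began. All mice received tamoxifen at 20 mg/kg every 24 h for 5 days, and tissue was collected 7 days after the last dose. Fixed cells were barcoded with a Parse Biosciences split-pool kit, and the 4 samples are sublibraries of 1 pool, labelled as replicates 1 and 2 of both genotypes together. The list has no column for sample, genotype or cell type, so it is 1 list without replicates. Sorted neuronal nuclei, which the series text also describes, were not analysed here.

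N6-methyladenosine (m6A) is a methyl mark on adenosines of messenger RNA, written in the nucleus by a METTL3-METTL14 complex and bound in the cytoplasm by YTH-domain proteins that affect translation and decay. It is usually found at the A of an RAC motif (R is A or G), and most often near the stop codon and in long internal exons. In scDART-seq the YTH domain is fused to APOBEC1, a cytidine deaminase, which edits the C that follows a methylated A, and the edit is read as a C-to-T change in single cells. APOBEC1-YTHmut carries a mutated YTH domain and serves as the control for editing that does not depend on m6A binding.

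The deposited list gives each site a whole number, called the site count here, without a header that says what it counts. The sequences of the single-site genes with the highest site counts show what such a site looks like. They run 21 nt, 5' to 3' on the strand of the gene, from the GENCODE M21 transcripts (mm10 coordinates), with RAC in capitals and the edited base as its final C. Of the 15 highest, 14 had a full window.
Uri1: aagaagatGACgatgatgatg
Zic2: atttttttAACtgtttttttt
Lztr1: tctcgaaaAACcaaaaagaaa
Arfgap1: ctgccaccGACaccctcacct
Gm14329: catgtcgaAACgtggacctgg
Gm10115: aaaaacaaAACattgcatgca
Exoc7: gccttttcGACacctctgctt
Uqcrc2: aaaaaaaaAACttaaaagcat
Dctn1: actgaaggAACgggtagacga
Ppp4r2: gcagaggaAACggaaacagca
Chn1os1: gctttgtgGACtgtggctctg
Nt5dc3: aaaaatcaAACtgtaaaccga
Heca: gccgccaaAACatgtggacca
Dstyk: gtgtctagAACcaaaaaaaaa

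The highest site count of a single-site gene was 100, at chr7:37965336 on the minus strand in the coding sequence (CDS) of Uri1, a prefoldin-like chaperone component. Zic2, a zinc finger transcription factor of forebrain development, followed with a site count of 67 at chr14:122479396 on the plus strand, in the 3' UTR and 153 nt after the stop codon. Lztr1, an adaptor of a CUL3 ubiquitin ligase, had 65 at chr16:17518136 on the plus strand, in an exon of a noncoding transcript of the gene. Arfgap1, an activator of ARF GTP hydrolysis at the Golgi, had 60 at chr2:180981799 on the plus strand, 429 nt after the stop codon. These sites lie in 3 kinds of region, and the same holds further down the ranking. Exoc7, an exocyst subunit, had 46 in the CDS, 12 nt before the last base of the stop codon. Dctn1, the large dynactin subunit, had 45 in exon 10 of 31, and Ppp4r2, a regulatory subunit of protein phosphatase 4, had 43 in exon 8 of 9. The 3' UTR site of Nt5dc3 had 39, the CDS site of Heca 38 and the 3' UTR site of Dstyk 35.

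The other high counts fell in transcripts that overlap coding genes. Gm14329, a long intergenic noncoding RNA with a site count of 56 at chr6:135743896, lies on the strand opposite to Grin2b, the gene of an NMDA receptor subunit. Gm10115, with 47 at chr2:6951454, is annotated as a sense-intronic transcript inside Celf2, and Gm10862, with 37, as one inside Frmd4a. Chn1os1, an antisense transcript with a site count of 39, had a site of Chn1 on the other strand 88 nt away. The 3' UTR site of Uqcrc2, which encodes a core subunit of respiratory complex III, had a site count of 46 and lay 16 nt from a site of Pdzd9 on the opposite strand. Whether reads were assigned by strand is not stated. All 1547 exonic single sites with sequence had a C on the listed strand, as had 28336 of 28337 over the whole list. A C is what a C-to-U call requires, so this is no result about single sites. The strand of origin was not tested. For the sense-intronic transcripts, position and base do not tell their RNA from that of the same-strand host.

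The site counts of single-site genes had a median of 4 and quartiles of 3 and 6. The median was also 4 over the whole list and over the sites of genes with 2, with 3 to 4 and with 5 to 9 sites, so a low typical count is shared by most of the list. The lowest count in the whole list is 3, and 718 of the 1551 genes (46.3%, 95% Wilson interval 43.8 to 48.8) had exactly that count. In genes with 10 or more sites a mean of 39.8% of a gene's sites stood at 3 (95% interval over genes 39.0 to 40.7). The difference was 6.44 percentage points (3.83 to 9.06). Genes with 2 sites (44.4%, 41.7 to 47.0) and with 3 to 4 sites (46.2%, 44.2 to 48.2) had values like those of the single-site genes. All intervals cover only the spread between genes of this list, and read depth is unknown. A count of 4 was held by 17.9% of single-site genes against a mean of 10.4% of sites in the genes with 10 or more.

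The sets parted more in the upper range. A site count of 10 or more was found in 144 single-site genes (9.28%, 7.94 to 10.8), against a mean of 25.7% of sites in genes with 10 or more (24.8 to 26.7). For 20 or more the values were 36 genes (2.32%) against 12.1%. Only 5 single-site genes reached 50. In genes with 10 or more sites the highest site count per gene had a median of 37. It was at least 20 in 544 of 709 (76.7%), while all 709 also had a site at 3. A gene with more sites has more chances of a high top count and of a site at 3. These values per gene therefore follow in part from how the sets were chosen, and were not read as a difference from single-site genes. The ranges overlapped: the top counts ran from 5 in Phf20l1 and 6 in Ghitm and Gm20721, each with 10 sites, to 1099 in Camk2n1, 2561 in CT010467.1 and 3538 in Malat1. At the limits of the definitions, 660 genes had 2 sites, 89 had 9 and 63 had 10. How strongly each gene is expressed is not in the list, and its part in the number of sites was not tested.

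**Figure D1:**
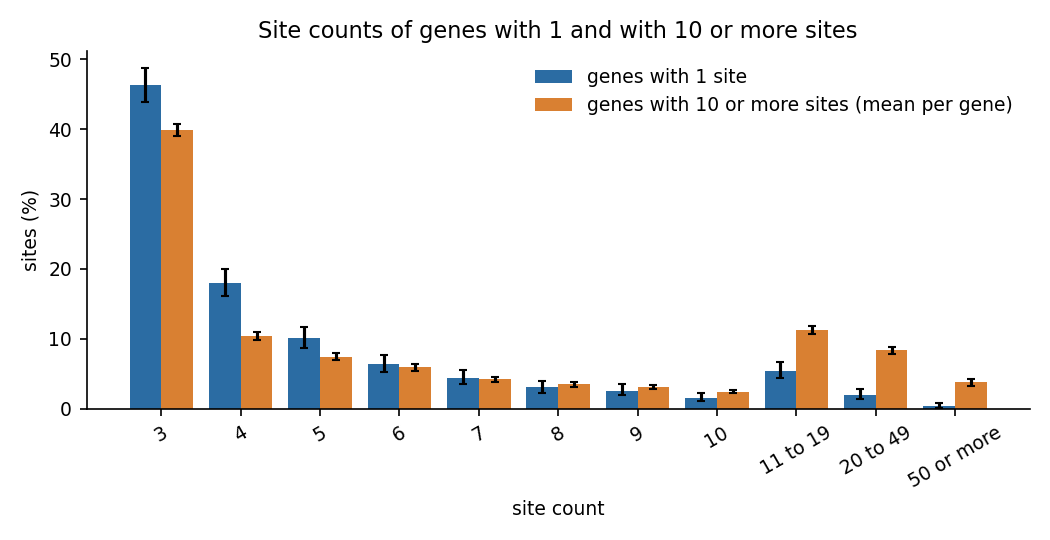
Share of sites (%) at each site count, for the 1551 genes with 1 site (blue, 95% Wilson interval) and as the mean per gene over 709 genes with 10 or more sites (orange, 95% interval over genes). Blue is higher at counts of 3 to 7 (46.3% at 3 and 17.9% at 4), and orange is higher from 8 upward. The intervals overlap at counts of 6 to 10.

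A smaller share of single sites than of the comparison genes' sites lay in 3' UTRs. Of the 1551 sites, 697 lay in a 3' UTR (44.9%, 42.5 to 47.4), 477 in the CDS (30.8%, 28.5 to 33.1), 56 in a 5' UTR (3.61%, 2.79 to 4.66) and 317 in an exon of a noncoding transcript (20.4%, 18.5 to 22.5). The remaining 4 were 1 intronic site, in Adam15, and 3 sites outside the annotated gene, those of Slc35f3, Gm44636 and B830012L14Rik. Genes with 10 or more sites held a mean of 68.1% of their sites in 3' UTRs (65.7 to 70.5), 24.8% in the CDS, 1.57% in 5' UTRs and 5.42% in noncoding exons. The 3' UTR difference was -23.1 percentage points (-26.6 to -19.7). Between these ends the 3' UTR share was 50.9% in genes with 2 sites, 56.0% with 3 to 4, 60.5% with 5 to 9 and 68.0% with 10 to 19. The intervals of the 2-site genes (47.4 to 54.4) and the single-site genes touched at the edge, and from 10 sites upward the share was level.

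**Figure D2:**
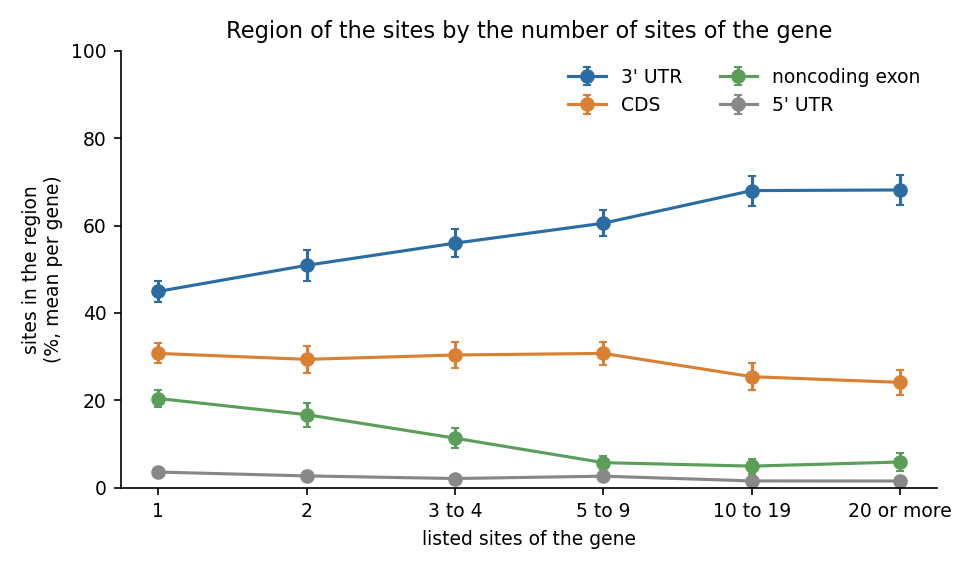
Mean share of a gene's sites (%) in each kind of region, by the number of listed sites of the gene, with 95% intervals over genes. The 3' UTR share is 44.9% in single-site genes and 68.2% in genes with 20 or more sites, while the noncoding exon share is 20.4% and 5.91%.

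The sets also differed in the kind of gene. Protein-coding genes made up 1359 of the single-site genes (87.6%, 85.9 to 89.2) and 686 of the 709 genes with 10 or more sites (96.8%, 95.2 to 97.8). Among protein-coding genes alone, the 3' UTR share was 51.3% (48.6 to 53.9) against a mean of 70.4%, the CDS share 35.0% against 25.6% and the 5' UTR share 4.12% against 1.62%. A further 128 sites of protein-coding single-site genes (9.42%) lay in noncoding exons, against 2.33%, and in 105 of the 128 the transcript was annotated as a retained intron. The 5' UTR sites with the highest site counts were those of Hes1, a transcriptional repressor downstream of Notch, with 18, and Pik3r3, a regulatory subunit of PI3-kinase, with 17.

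The 192 single-site genes that were not protein-coding (12.4%) included 85 genes of the annotation class TEC (awaiting experimental evidence), 53 antisense transcripts, 22 lincRNAs, 15 processed transcripts and 9 sense-intronic transcripts. Among the listed genes of these other classes, 192 of 345 had 1 site (55.7%, 50.4 to 60.8), against 1359 of 3861 listed protein-coding genes (35.2%, 33.7 to 36.7). Many lay within coding genes: 77 of 192 (40.1%) were inside one on the same strand, 72 (37.5%) inside one on the opposite strand and 43 in neither position. Of the 85 TEC genes 63 lay in a coding gene on the same strand, and of the 53 antisense genes 47 lay in one on the opposite strand. The same-strand host had sites of its own in 49 of 77 cases, and 10 or more sites in 18.

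Of all 1551 sites, 72 (4.64%, 3.70 to 5.81) fell where a listed gene of the opposite strand has an exon, against a mean of 1.45% in genes with 10 or more sites. The partner had 10 or more sites in 23 cases and was itself a single-site gene in 22. Of the 72 genes 33 were protein-coding, for example Tmem150b, whose 3' UTR site lay 1 nt from a site of Brsk1. A site of another gene was within 100 nt in 40 cases. For 3 symbols the annotated gene also carried sites under a second symbol, so their single site depends on how the list names genes.

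Around the stop codon, positions were measured for the 1169 sites that lie on the longest coding transcript of their gene. Of these, 338 (28.9%, 26.4 to 31.6) were within 400 nt of the stop codon on either side, against a mean of 32.6% (30.5 to 34.7) in genes with 10 or more sites. The 200 nt after the stop codon held 138 sites (11.8%, 10.1 to 13.8) against 14.2% (12.8 to 15.7). Both sets were therefore densest at the same place, and the intervals of the shares overlapped. They differed further upstream: between 400 and 1000 nt before the stop codon lay 51, 54 and 54 single sites per 200 nt, or 4.36%, 4.62% and 4.62%, against 2.07%, 2.25% and 1.60%. The median single site lay 12 nt after the stop codon, and the median site of the genes with 10 or more lay 308 nt after it.

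**Figure D3:**
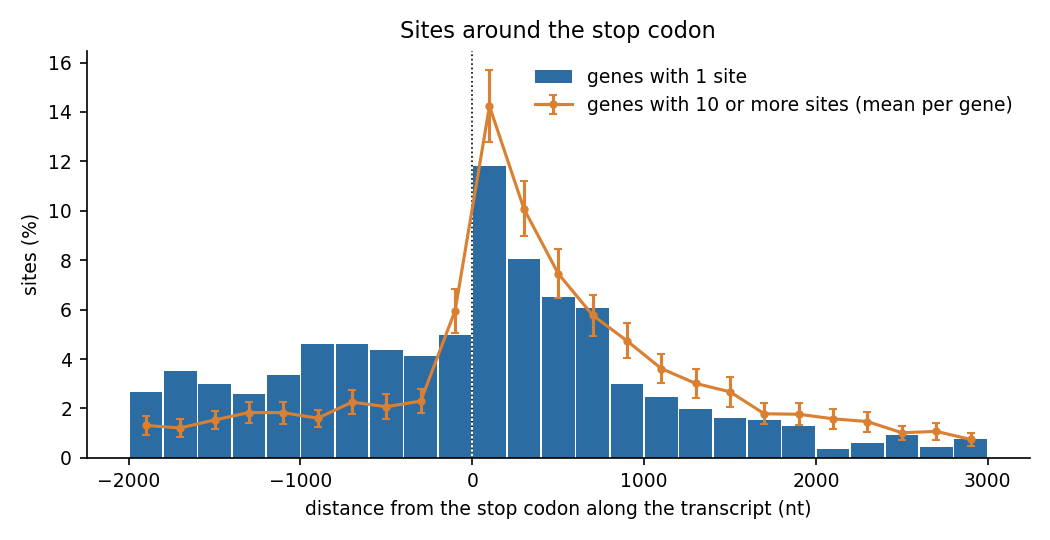
Share of sites (%) per 200 nt of distance from the stop codon along the transcript, for 1169 single sites (blue bars) and as the mean per gene over 682 genes with 10 or more sites (orange, 95% intervals over genes). Both peak in the 200 nt after the stop codon, at 11.8% and 14.2%, and the bars stand above the line further upstream.

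Within the CDS, single sites were spread more toward the start. Split into 3 equal parts from the 5' end, the CDS held 39.8%, 32.0% and 28.2% of 532 single CDS sites, against means of 28.9%, 28.8% and 42.4% in genes with 10 or more. In the 3' UTR the 3 equal parts held 45.4%, 23.1% and 31.4% of 592 single sites, against 54.0%, 27.0% and the remainder (17.1 to 20.8). Within 500 nt of the 3' end of the transcript lay 17.5% of single sites (15.4 to 19.7) against 11.7% (10.2 to 13.2). The first part of the CDS and the last part of the 3' UTR thus held larger shares of single sites than of the comparison genes' sites.

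Exon structure showed the same contrast. The last exon held 674 of 1169 single sites (57.7%, 54.8 to 60.5) against a mean of 73.1% (70.7 to 75.5), a difference of -15.4 percentage points (-19.1 to -11.7). Of the CDS sites alone, 15.2% were in the last exon against 26.5%. Within 50 nt of an exon junction lay 277 of 1144 single sites in spliced transcripts (24.2%, 21.8 to 26.8) against 12.6% (11.3 to 13.9). Where the site was in an internal exon, that exon had a median length of 157 nt in single-site genes and 214 nt over sites of the comparison genes. Psmc1, a proteasome ATPase with a site count of 22, is an example: its site is in an exon of 97 nt, 35 nt from a junction.

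These shares depend on where a transcript offers RAC, so they were also set beside every RAC cytosine of the same transcripts. Of 1077 single RAC sites, 49.9% were in the 3' UTR while 41.1% of the available RAC cytosines were, a ratio of 1.21. In genes with 10 or more sites the values were 66.3% and 47.2%, a ratio of 1.40. In the 200 nt after the stop codon lay 11.8% of single RAC sites and 6.02% of their RAC cytosines, and in the comparison genes 13.8% and 4.72%, a ratio of 2.92. The ratios for the window of 400 nt on either side were 1.17 and 1.70, and those for the last exon 1.11 and 1.34. Near exon junctions both sets were below the available cytosines, with ratios of 0.808 (25.1% of sites, 31.0% of cytosines) and 0.519 (13.1% and 25.2%). Single sites thus departed from the available RAC cytosines in the same directions as the sites of the comparison genes, with ratios closer to 1 in these measures. Within 500 nt of the 3' end the ratios were alike. They were 1.15 for single sites (16.8% of sites, 14.6% of cytosines) and 1.17 in the comparison genes (11.9% and 10.2%). The larger share of single sites near the 3' end thus went with a larger share of available RAC cytosines.

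Nearly all single sites were listed at an RAC motif. RAC preceded the edit at 1423 of the 1547 exonic sites with sequence (92.0%, 90.5 to 93.2), against a mean of 77.2% (76.5 to 77.9) in genes with 10 or more, a difference of 14.8 percentage points (13.3 to 16.3). All 124 single sites outside RAC had a site count of 3, and so had all 6300 sites outside RAC in the whole list. Every classed site above a count of 3 was thus in RAC, which is a property of the list and not of these genes. How sites were filtered is not stated, so the RAC share does not show that single sites carry m6A. Compared at that count alone, RAC was found at 594 of 718 single sites (82.7%, 79.8 to 85.3) against 41.1% (39.3 to 42.8). Of the 124, 60 were in 3' UTRs, 29 in noncoding exons, 28 in the CDS and 7 in 5' UTRs. For 120 the whole context was known, and the base before the C was T in 45, C in 27, G in 26 and A in 22. DRACH, which is RAC with a base other than C before it and a base other than G after it, covered 70.9% of single RAC sites (68.5 to 73.2) and 71.3% in the comparison genes (70.2 to 72.5), a pair of values whose intervals overlap. Both sets were below the DRACH share of all RAC cytosines of their transcripts: on these transcripts it was 67.6% of single RAC sites (64.8 to 70.4) against 74.5% of RAC cytosines, a ratio of 0.907, and 70.8% against 73.7% in the comparison genes, a ratio of 0.960.

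The most frequent single-site context of 5 nt, with the edit at the fourth base, was AAACA, found at 263 RAC sites (18.6%) against 12.2% of the RAC sites of genes with 10 or more. GAACG was found at 88 sites (6.21% against 2.81%), and GAACA at 101 (7.13% against 5.12%). The base after the edit was G at 20.7% of single RAC sites (18.7 to 22.9) against 14.5%, and the base before RAC was A at 47.9% (45.3 to 50.5) against 39.3%. The CDS sites of Med1, a Mediator subunit (site count 24), and Rps23, a ribosomal protein (27), have the GAACG context.
Med1: aaagcacgAACggggttctcc
Rps23: tcattaagAACgggaagaaga

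The windows of Uqcrc2 and Dstyk show a further feature, a run of adenines. At least 5 adenines in a row stood within 10 nt of 347 of 1386 single RAC sites (25.0%, 22.8 to 27.4), against a mean of 12.3% (11.3 to 13.3). The share was lower in genes with more sites: 24.2% at 2 sites, 22.0% at 3 to 4, 17.1% at 5 to 9 and 13.1% at 10 to 19. Among all RAC cytosines of the same transcripts only 3.51% had such a run in single-site genes and 4.11% in the comparison genes. Single RAC sites on these transcripts had it at 22.3% (237 of 1062), 6.36 times the available share, and the comparison genes at 11.8%, 2.87 times. Runs of 8 adenines were at 4.71% of these single sites against 0.214% of their RAC cytosines. Runs of 5 thymines were rarer, at 3.67% against 1.68%.

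Adenine runs were more frequent at higher site counts in both sets. In single-site genes they stood at 118 of 577 RAC sites with a count of 3 (20.5%, 17.4 to 23.9), 172 of 668 with 4 to 9 (25.7%, 22.6 to 29.2) and 57 of 141 with 10 or more (40.4%, 32.7 to 48.7). In genes with 10 or more sites the mean share had an interval of 6.21 to 8.85% at a count of 3, 9.77 to 12.2% at 4 to 9 and 16.1 to 19.9% at 10 or more. The interval at 10 or more overlaps neither of the others in either set. Single-site genes with counts of 20 or more, a part of that last band, stood at 13 of 35 (37.1%, 23.2 to 53.7). This shows no further rise. In the comparison genes the mean at 20 or more was 20.6% (17.9 to 23.2). The windows of Lpp (site count 3) and Hes1 (18) are shown as examples of long runs at a low and at a high count. The part that such runs play in priming, alignment or editing was not tested.
Lpp: aaaaaaaaAACctgtttaatt
Hes1: aaaaaaaaAACgaaaatgcca

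**Figure D4:**
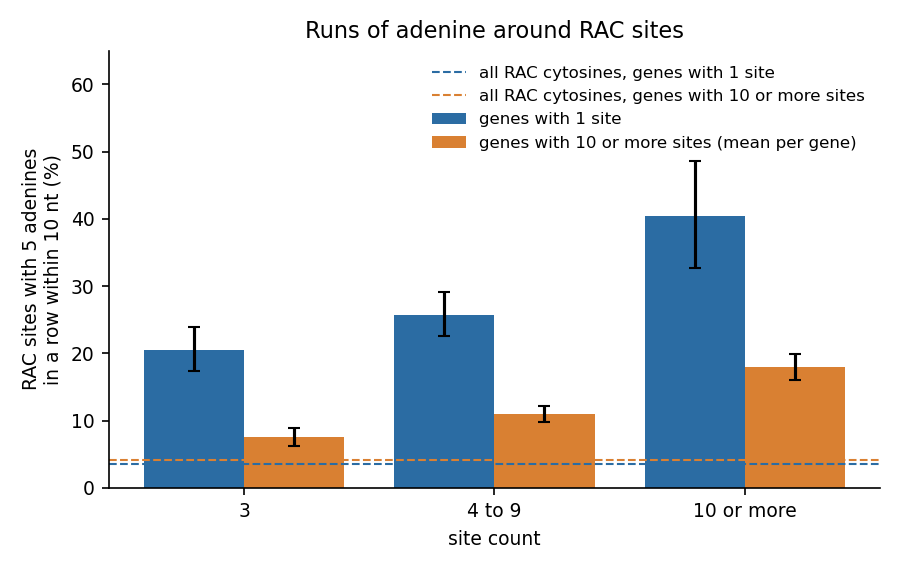
Share of RAC sites (%) with 5 adenines in a row within 10 nt, by site count, for single-site genes (blue, 95% Wilson interval) and as the mean per gene for genes with 10 or more sites (orange, 95% interval over genes). Dashed lines give the share among all RAC cytosines, 3.51% and 4.11%, and the highest bar is 40.4%.

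Single-site genes offered less sequence, though not in every case. Their merged exons had a median length of 5217 nt (quartiles 3322.5 and 7914) against 7447 nt, and they held a median of 136 RAC cytosines against 196. The 3' UTR of the protein-coding members had a median of 1553 nt against 2527 nt. Even so, 435 single-site genes (28.0%) were longer than the median of the comparison genes, and 417 (26.9%) held more than 196 RAC cytosines. The longest was Mast4, a microtubule-associated kinase, with 32326 nt of merged exons and 777 RAC cytosines and a site count of 3. Itsn1, an endocytic scaffold, had 23425 nt, Lpp 22046 nt, Vps13b 21273 nt and Cacna1c, the gene of an L-type calcium channel subunit, 21191 nt. Hydin, with 605 RAC cytosines, and Alms1, with 563, had 1 site each as well, at counts of 4 and 5. With both sets split by exon length into 4 bins of equal size, the 3' UTR share of single-site genes was lower in each bin. The difference was -14.2 percentage points in the bin of longest genes (44.1% and 58.4%) and -32.5 in the bin of shortest (42.0% and 74.5%).

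Genes of ribosomes and respiration, where listed, mostly had 1 site. The background is that 17.5% of 22028 annotated protein-coding genes were listed, 35.2% of the listed ones had 1 site and 686 of 3859 (17.8%) had 10 or more. Of 83 genes grouped by symbol as cytosolic ribosomal proteins 11 were listed, 10 with 1 site (90.9%, 62.3 to 98.4). They included Rps23 (site count 27), Rpl22 (18), Rpl29 and Rps15a (9 each), Rpl7l1 and Rps25 (5 each), and Rpl14, Rpl21 and Rpl8 (3 each). Rpl7l1 is an Rpl7-like gene that the grouping by symbol brings in. Ribosomal protein genes have near-identical pseudogene copies among which reads can be split, so their values are uncertain. All 5 listed mitochondrial ribosomal protein genes of 78 had 1 site, the highest being Mrpl19 with 6. Of 80 oxidative phosphorylation subunits 15 were listed, 9 with 1 site (60.0%, 35.7 to 80.2), including Uqcrc2 (46), Atp5b (9), Atp5d (7) and Ndufa3 (6). None of these 3 lists had a gene with 10 or more sites, but at the background share their 11, 5 and 15 listed genes are too few for that to be read as a difference.

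The next 3 lists likewise had few listed genes, none of them with 10 or more sites. Of 43 RNA polymerase II and Mediator genes 10 were listed and 7 had 1 site (70.0%, 39.7 to 89.2), among them Med1 (24) and Polr2a (4), the largest subunit of the polymerase. Of 63 genes of vacuolar sorting and the retromer 17 were listed and 11 had 1 site (64.7%, 41.3 to 82.7), with Vps4a at 9, Vps37a at 8 and Snx16 at 7. Of 39 proteasome genes 12 were listed and 5 had 1 site (41.7%, 19.3 to 68.0), an interval that holds the background of 35.2%, and the highest was Psmc1 (22). Zinc finger proteins of the Zfp series contributed 33 single-site genes among 58 listed of 391 (56.9%, 44.1 to 68.8). Of the listed ones 4 had 10 or more sites (6.90%), and Zfp318 had the highest single count (28). Predicted and unnamed transcripts (symbols in Gm or Rik) were listed in 367 cases, 204 with 1 site (55.6%, 50.5 to 60.6) and 18 with 10 or more (4.90%). Over all listed genes these shares were 36.9% and 16.9%. The 1-site share is near the 55.7% of all listed genes that are not protein-coding, so it is not particular to this list.

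Synaptic genes stood at the other end. Of 40 synaptic genes 39 were listed, 26 with 10 or more sites and 1 with a single site, Shank3, a postsynaptic scaffold, whose CDS site had a count of 3. Of 14 listed immediate early genes 1 had a single site, Fosl2, an AP-1 subunit, with a count of 4 in the 3' UTR. Kinesins had 1 of 13, Kif1c (3), and potassium channels 4 of 30, Kcns2 (6), Kcnab2 and Kcnb2 (4 each) and Kcnab1 (3). Chromatin modifiers were listed at 37 of 64 with 3 single-site genes, Brd1 and Kdm3a (5 each) and Brd7 (3, outside RAC). Solute carriers were close to the background, with 24 single-site genes among 69 listed. The highest of them was Slc27a1, a fatty acid transporter, with 31. The cell-type marker lists were too short to tell from the background, since the interval of each list with a listed marker includes 35.2%. None had 1 site among the listed markers of excitatory neurons (6), inhibitory neurons (2), astrocytes (4), oligodendrocyte precursors (1), endothelial and mural cells (5) and ependyma and choroid plexus (1). Of 6 listed oligodendrocyte markers 1 had a single site, Mog (3, outside RAC), a myelin glycoprotein. Of 10 microglia markers 2 were listed, each with 1 site. They were Csf1r (5), the receptor that microglia need to survive, and Cx3cr1 (4), the fractalkine receptor. In the pool, fewer cells of a type and less RNA per cell cannot be told apart.

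**Figure D5:**
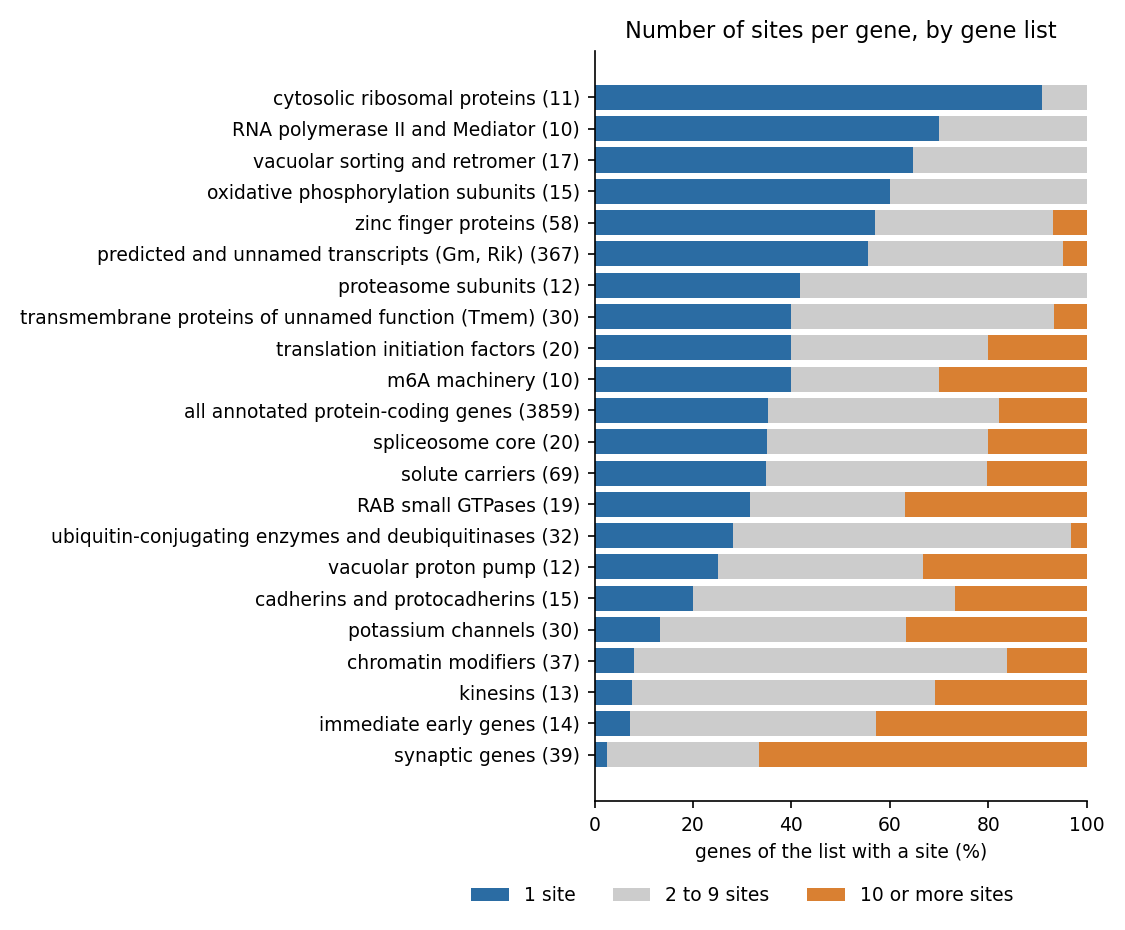
Share (%) of the listed genes of each gene list with 1 site (blue), 2 to 9 sites (grey) and 10 or more sites (orange), with the number of listed genes in parentheses, for lists with at least 10 listed genes. Cytosolic ribosomal proteins (10 of 11 with 1 site) and synaptic genes (1 of 39) are at the ends, and all protein-coding genes stand at 35.2%.

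The m6A machinery itself had 10 of 24 genes in the list, of which 4 had 1 site, 3 had 2 to 9 and 3 had 10 or more. The share with 1 site (40.0%, 16.8 to 68.7) has an interval that holds the background of 35.2%. With 10 or more sites the share was 30.0% against 17.8%, on too few genes to be read as a difference. The single-site members were Rbm15b (site count 4), an adaptor of the writer complex, Mettl16 (3), a methyltransferase for U6 snRNA and Mat2a, and Ythdf1 (4) and Ythdf3 (3), cytoplasmic readers. All 4 sites were in the CDS and in RAC. The sites of both readers lay in exon 4 of 5 and 183 nt before the last base of the stop codon. The site of Ythdf1 is at chr2:180910843 on the minus strand and that of Ythdf3 at chr3:16205265 on the plus strand. Their windows are shown because the genes are paralogs. Both windows hold GACAACAAACC, but the edited C ends GAC in Ythdf3 and the following AAC in Ythdf1. The equal distance to the stop codon is therefore not the same aligned base, and the nearest exon junction lay 156 nt away in Ythdf1 and 159 nt in Ythdf3.
Ythdf1: ataacgacAACaaacctgtca
Ythdf3: aaaataatGACaacaaaccag

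By chromosome, single-site genes were 29.1% (chromosome 14, 46 of 158) to 46.5% (chromosome 8, 101 of 217) of the listed genes. The overall share of 36.9% lay inside the 95% Wilson interval of 18 of the 20 autosomes and X. The exceptions were chromosome 8 (40.0 to 53.2) and, narrowly, chromosome 14 (22.6 to 36.6). Among 20 intervals of 95% some can miss by chance, so neither is read as a difference between chromosomes. Chromosome 2 had the most listed genes, 342, and the most with 1 site, 127, a share of 37.1% (32.2 to 42.4). The X chromosome had 45 of 127 listed genes (35.4%) and the Y chromosome 1. The strands were even, with 768 genes on the plus and 783 on the minus strand.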

How the data were processed

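The 4 sublibraries of 1 cortical pool are represented by a single site list. STAR 2.7.5 and the build mm10 are named per the submitters' processing notes, and Bullseye as the site caller per the series text. The authors deposited 1-base positions with strand, gene symbol and a whole-number count per site, treated as unnormalized. How cells, reads and sites were filtered, and how the APOBEC1-YTHmut cells entered the calls, is not stated. Depth is unknown.

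Sites were placed on GENCODE M21 by symbol and strand (1535 of the 1551 members), by an older symbol (7) or by position alone (9), with Python 3.11.15, numpy 2.4.6 and scipy 1.17.1. Where transcripts differed, 3' UTR took precedence, followed by CDS, then 5' UTR, exons of noncoding transcripts and introns. Stop codons and exons refer to the longest coding transcript. Distances from the stop codon, before or after it, count from its last base. All 1547 exonic members with sequence had a C. Sequence context came from the transcripts.

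Shares of single-site genes have 95% Wilson intervals. For genes with 10 or more sites each gene counts once, by its mean share, with a normal interval over genes. No p-value was computed, since genes of 1 list are not replicates. The scripts were tested on simulated data.

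The members and lists were chosen with earlier results of these data known. Named genes are the 15 highest site counts, up to 4 single-site members per list, the 5 longest and the 5 with the most RAC cytosines, and the 3 highest counts per region. Tmem150b falls under the list rule for the Tmem series, and further ribosomal protein genes go beyond the rule. A few genes under the rule are not reported here. Of genes with 10 or more sites, those with the 3 lowest and 3 highest top counts are named. Alternatives changed the count minimum, merging of nearby sites, overlapping genes, transcript choice and comparison set.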

Additional observations from a re-analysis of the deposited data

How the results depend on the processing

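Across 57 alternatives for 13 results, 34 values stayed within the reported interval, or within 1.5 times for the number of genes. Keeping only sites at or above a count of 4 gave 1368 single-site genes, of which 833 were among the 1551. Their share at a count of 3 was then 0% and their RAC share 100% by construction, the 3' UTR share 48.2%, the median site count 5 and the median exon length 5493 nt. Merging sites within 10 nt gave 1747 genes and 42.5% at a count of 3, and leaving out members in an exon of another listed gene gave 89.6% protein-coding. The 3' UTR share was 40.7% with CDS placed before 3' UTR, 50.6% on the longest coding transcript and 51.3% in protein-coding genes, a restriction chosen after seeing the data. The window of 200 nt around the stop codon held 16.8%, and the last exon of the longest transcript of any kind 62.4%. The median length was 3888 nt for the longest transcript and 4326 nt for exons of coding transcripts.

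Against genes with 5 or more sites the differences in percentage points were -19.5 (3' UTR), 12.7 (RAC) and -11.1 (last exon). Against only the highest-count site of each gene with 10 or more sites they were 46.3 (count of 3), -28.1 (3' UTR), -20.7 (last exon) and, with the sign reversed, -8.02 (RAC), because those sites all have a count above 3, where no single site or top site lies outside RAC. With every site counted once the RAC difference was 17.4, and in protein-coding genes the 3' UTR difference was -19.1.

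No paired analysis was possible because replicates are not separated in the deposited list. Neither depth nor expression is in the list, so a gene with 1 site cannot be told apart from a gene with further sites below the lowest listed count of 3. The intervals hold no spread between animals, and the origin of editing in either fusion cannot be read from the list.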
